A study of Mus musculus with 12 samples.

Results

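The Ras and Myc families of oncogenes were followed through 12 RNA-seq libraries of mouse mesenchymal stem cell (MSC) lines. The 8 genes were chosen by name from the 21881 genes of the deposited table: Nras, Hras, Rras, Rras2, Mras, Myc, Mycn and Mycl1. Hras stands in the table under its older symbol Hras1, and Mycl1 is now named Mycl in RefSeq. The lines were immortalized, monoclonal and of strain C57BL/6. MSCs are fibroblast-like cells of the adult bone marrow. There were 3 libraries in each of 4 groups. In KO_let-7g, Dicer -/- cells received a synthetic let-7g duplex. In KO_siNr6a1, Dicer -/- cells received an siRNA against Nr6a1, which encodes an orphan nuclear receptor. In KO_siCtrl, Dicer -/- cells received a nontargeting siRNA, and in WT_siCtrl, Dicer f/f cells received the same nontargeting siRNA. Every group was transfected at 20 nM and harvested after 48 h, so none was free of transfection. The labels do not say how many clones stood for each genotype, so genotype and clone cannot be told apart. They also do not say that libraries of a group were separate cultures, so the p-values speak of the spread among the libraries alone, part of which may be technical.

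Ras proteins are small GTPases that relay signals from cell-surface receptors while bound to GTP. Exchange factors load them with GTP, GTPase-activating proteins switch them off, and the Raf, MEK and ERK kinases are their best known output. Myc proteins are transcription factors that bind DNA together with Max and drive genes of ribosome production and metabolism. Dicer cuts microRNA precursors, and the let-7 microRNAs pair through their seed, bases 2 to 8, with sites in 3′ untranslated regions (3′ UTRs). Ras and Myc genes are textbook let-7 targets, and the groups ask how their mRNAs stand without Dicer and with let-7g given back.

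The mature let-7g sequence is shown with that of let-7a, the family's first member, because both carry the same seed, here in capitals. The sequences are from RefSeq (GRCm38.p6), in which all 8 mouse let-7 sequences read here share it and differ from let-7g at 2 to 4 of 22 positions.
let-7g: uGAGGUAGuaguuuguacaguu
let-7a: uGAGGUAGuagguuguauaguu
The matches to this seed were searched on the transcript strand of the longest 3′ UTR of each gene in GENCODE vM21 (GRCm38). The letters were CTACCTCA (8mer), CTACCTC (7mer-m8), TACCTCA (7mer-A1) and TACCTC (6mer). Each place was counted once, under the longest match. The 7-base matches of the families and the single 6-base matches of Hras and Rras are printed below with the match in capitals, as the sites against which the values can be read.
Nras 7mer-m8, chr3:103064363-103064388, plus strand: cttcagaataaCTACCTCctcactcg
Nras 7mer-A1, chr3:103066921-103066946, plus strand: aaggtctgcttTACCTCAaagttgca
Mycn first 7mer-A1, chr12:12936491-12936516, minus strand: tactgtaagaaTACCTCAatgtttga
Mycn second 7mer-A1, chr12:12936120-12936145, minus strand: gcactttgaaaTACCTCAtgtttatg
Mycl1 7mer-A1, chr4:123001045-123001070, plus strand: gcatggagcatTACCTCAccgtcaga
Hras 6mer, chr7:141189339-141189363, minus strand: ggacttctgtgTACCTCgaggactg
Rras 6mer, chr7:45021534-45021558, plus strand: ccttctgtcaaTACCTCctcctttc
Nras, with a 3′ UTR of 3727 bases, also held 1 6mer, and Mycl1 held 1 in 1970 bases. The UTRs of Rras2 (1382 bases), Mras (2985 bases) and Myc (466 bases) held none of these letters, and no gene of the 8 held an 8mer. Among 20979 genes with a 3′ UTR, 14.8% held a match of 7 or 8 bases and 3.02% an 8mer. Among the 1746 genes whose UTR was within 20% of the length of Nras, 32.6% held a match of 7 or 8 bases. The Hras 6mer lies beyond the 3′ end of Hras in RefSeq (chr7:141189934-141194019), within the longer UTR of GENCODE. Which UTR end these cells use was not measured. A match is a stretch of letters, not a measured binding site.

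The libraries were first checked against their labels. The table gives FPKM and no counts. The relative depth, read from the spacing of low values, ran between 1 and 1.82, and 15469 to 16602 genes were above 0 in a library. Of 10 mesenchymal markers, 9 averaged at least 1 FPKM (a gene's fragments divided by transcript length and by all mapped fragments of the library) in every group; Thy1 was at or near 0. No blood or endothelial marker reached that level, and of 4 epithelial markers only Krt8 did, at 1.17 FPKM in KO_siCtrl. Dicer1, measured over the whole gene, averaged 2.70 ± 0.291 FPKM in KO_let-7g, 3.15 ± 0.392 in KO_siNr6a1, 3.86 ± 0.214 in KO_siCtrl and 6.58 ± 1.45 in WT_siCtrl (SD, n = 3 each, as in all group values here). Nr6a1 fell in KO_siNr6a1, with 3.68 ± 0.539 FPKM against 11.7 ± 1.32 in KO_siCtrl. It also fell in KO_let-7g, at 4.22 ± 1.04 FPKM. The 3 comparisons with KO_siCtrl share its 3 libraries, and in bulk RNA fewer cells of a type and less RNA per cell cannot be told apart.

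Nras moved in every comparison and had its lowest level in let-7g-transfected cells. Hras and Rras stood apart in KO_siNr6a1, in opposite directions. Rras2 was highest in KO_let-7g. Mras was about 7-fold lower in KO_siCtrl than in WT_siCtrl, and stood between these groups in KO_let-7g. Myc did not pass the test in any comparison, and Mycn and Mycl1 were close to 0. Differences are log2 fold changes on the log2(FPKM + 1) scale, which understates changes of low genes, with adjusted p-values from limma, and genes with an adjusted p under 0.05 were called.

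**Figure D1:**
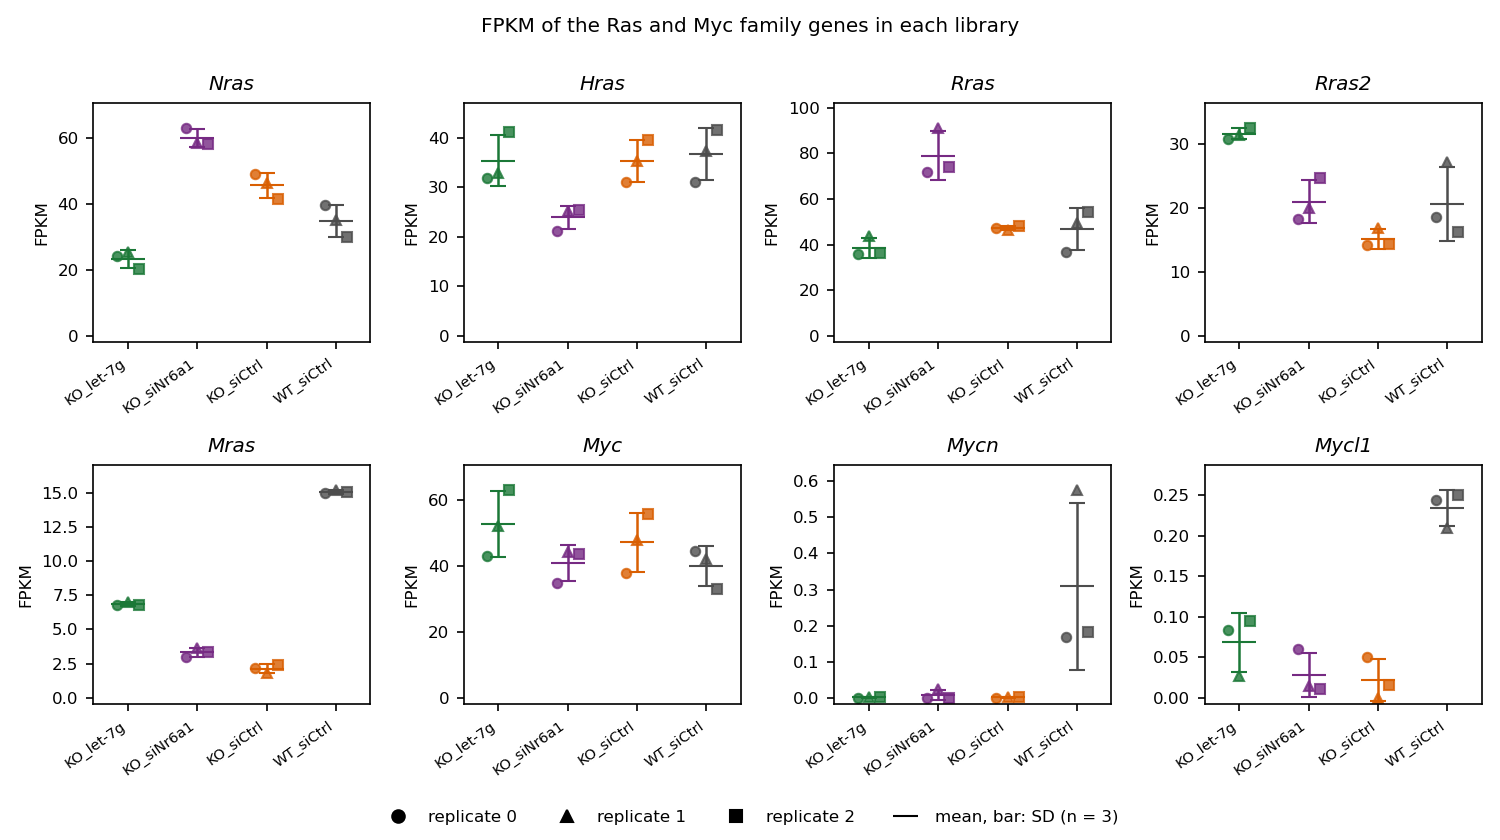
FPKM of the 8 genes (vertical axes, each with its own range) in the 3 libraries of each of the 4 groups, with the symbol giving the replicate number, the long line the mean and the bar the SD. Nras is lowest in KO_let-7g, at 20.2 to 25.3 FPKM, and Mras is highest in WT_siCtrl, at 15.0 to 15.2 FPKM.

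Nras encodes N-Ras, one of the classical Ras proteins that activate Raf kinases at the plasma membrane. It had 24.2, 25.3 and 20.2 FPKM in the KO_let-7g libraries of replicate 0, 1 and 2, and 63.0, 58.2 and 58.1 FPKM in KO_siNr6a1. It had 48.9, 46.4 and 41.4 FPKM in KO_siCtrl and 39.7, 34.9 and 29.9 FPKM in WT_siCtrl. No 2 of these groups overlapped. The order was therefore KO_siNr6a1, KO_siCtrl, WT_siCtrl and KO_let-7g from high to low, and every neighbouring pair passed the test. With let-7g, Nras fell to 0.51 of its level in KO_siCtrl (23.2 ± 2.69 against 45.5 ± 3.83 FPKM; log2 fold change -0.95, SE 0.114, adjusted p = 7.12e-05). It also lay below WT_siCtrl (34.8 ± 4.88 FPKM; -0.56, adjusted p = 0.00148). The loss of Dicer went with a smaller rise, 1.31-fold in KO_siCtrl over WT_siCtrl (0.38, SE 0.114, adjusted p = 0.0145). Nras also rose in KO_siNr6a1 (59.8 ± 2.77 FPKM), 1.31-fold over KO_siCtrl (0.39, adjusted p = 0.0258). These small rises rest on few libraries: the first had an adjusted p of 0.0566 without KO_siCtrl replicate 0 and 0.0570 without WT_siCtrl replicate 2. The second lost its call without any 1 of the 3 KO_siNr6a1 libraries, and without KO_siCtrl replicate 1 or 2, with adjusted p of up to 0.0916.

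Hras encodes H-Ras, another classical member. It stood lower in KO_siNr6a1 than in the rest: 31.9, 32.9 and 41.3 FPKM in KO_let-7g, 21.2, 25.1 and 25.4 in KO_siNr6a1, 31.1, 35.3 and 39.5 in KO_siCtrl, and 31.1, 37.4 and 41.7 in WT_siCtrl. The KO_siNr6a1 libraries lay below all others. Hras fell in KO_siNr6a1 (23.9 ± 2.32 FPKM), to 0.677 of its level in KO_siCtrl (35.3 ± 4.19 FPKM; -0.54, SE 0.136, adjusted p = 0.0122). It was also higher in KO_let-7g than in KO_siNr6a1 (0.54, adjusted p = 0.00858). Between KO_let-7g and KO_siCtrl the difference was -0.00, with a 95% interval of -0.30 to 0.30. Between KO_siCtrl and WT_siCtrl it was -0.05, with an interval of -0.35 to 0.25. Nras and Hras, the 2 classical members in the set, thus had differences of opposite sign in KO_siNr6a1 against KO_siCtrl, each past the threshold.

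Rras encodes R-Ras, a relative of the classical proteins known for acting on integrins and cell adhesion. It had 35.8, 43.6 and 36.3 FPKM in KO_let-7g, 71.9, 91.3 and 74.1 in KO_siNr6a1, 47.1, 46.3 and 48.2 in KO_siCtrl, and 36.6, 49.3 and 54.5 in WT_siCtrl. KO_siNr6a1 was above every other library, while the WT_siCtrl libraries spanned the values of KO_siCtrl. Rras rose in KO_siNr6a1 (79.1 ± 10.6 FPKM), 1.68-fold over KO_siCtrl (47.2 ± 0.954 FPKM; 0.72, SE 0.142, adjusted p = 0.00331). KO_let-7g lay below KO_siNr6a1 (log2 fold change -1.015, adjusted p = 2.81e-04). Its mean of 38.6 ± 4.36 FPKM was not called against KO_siCtrl (-0.29, adjusted p = 0.118) or against WT_siCtrl (46.8 ± 9.20 FPKM; -0.26, adjusted p = 0.138). Both differences passed the threshold when libraries were scaled by median of ratios, with adjusted p of 0.0346 and 0.0250, and without WT_siCtrl replicate 0, with 0.0424 and 0.0115. The first also did in a fit of the 2 groups alone (0.0365), and the second under quantile scaling (0.0433).

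Rras2 encodes TC21, an R-Ras relative that can transform cells in culture. It had 30.8, 31.4 and 32.5 FPKM in KO_let-7g, 18.2, 19.9 and 24.7 in KO_siNr6a1, 14.1, 16.9 and 14.3 in KO_siCtrl, and 18.6, 27.1 and 16.2 in WT_siCtrl. The let-7g libraries lay above all 9 others. Rras2 rose 2.09-fold in KO_let-7g over KO_siCtrl (31.6 ± 0.857 against 15.1 ± 1.54 FPKM; 1.02, SE 0.166, adjusted p = 5.26e-04). It was also higher than in WT_siCtrl (0.62, adjusted p = 0.00752) and in KO_siNr6a1 (0.58, adjusted p = 0.0165). This last value reached 0.0651 under median-of-ratios scaling and 0.0628 without KO_siNr6a1 replicate 0. No pair of the other 3 groups was called: KO_siNr6a1 averaged 20.9 ± 3.35 FPKM, KO_siCtrl 15.1 ± 1.54 and WT_siCtrl 20.6 ± 5.77. KO_siCtrl against WT_siCtrl gave -0.40 (adjusted p = 0.0634) and KO_siNr6a1 against KO_siCtrl 0.44 (adjusted p = 0.0683). With replicate number as a block these became 0.0442 and 0.0417, and under median-of-ratios scaling 0.0430 and 0.0419. Without WT_siCtrl replicate 2 they were 0.0171 and 0.0412, and the second was 0.0179 without WT_siCtrl replicate 1. The annotation places an antisense gene, Gm45615, over 1460 bases of Rras2. No source states that reads were counted by strand, so those of this pair cannot be told apart.

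Mras encodes M-Ras, which joins Shoc2 and a protein phosphatase to release Raf from inhibition. Its libraries fell into 4 levels with little spread: 6.76, 7.002 and 6.80 FPKM in KO_let-7g, 2.97, 3.67 and 3.32 in KO_siNr6a1, 2.21, 1.78 and 2.41 in KO_siCtrl, and 14.96, 15.2 and 15.0 in WT_siCtrl. No groups overlapped, and every neighbouring pair in this order of levels passed the test. Mras fell to 0.142 of its WT_siCtrl level in KO_siCtrl (2.14 ± 0.322 against 15.1 ± 0.127 FPKM; -2.36, SE 0.0954, adjusted p = 1.09e-08). Of the 11801 genes tested, 2.22% had a larger change in that comparison. With let-7g it rose 3.21-fold over KO_siCtrl (6.86 ± 0.129 FPKM; 1.33, adjusted p = 3.17e-06) and stayed below WT_siCtrl (-1.03, adjusted p = 5.24e-06). A smaller rise was seen in KO_siNr6a1 over KO_siCtrl (3.32 ± 0.346 FPKM; 0.46, adjusted p = 0.00439). The level in KO_let-7g lay above that in KO_siNr6a1 (0.87, adjusted p = 6.90e-05). These calls held in every alternative run.

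Myc encodes c-Myc. It had 43.1, 52.3 and 63.2 FPKM in KO_let-7g, 34.8, 44.3 and 43.8 in KO_siNr6a1, 37.9, 48.1 and 55.8 in KO_siCtrl, and 44.7, 42.1 and 33.1 in WT_siCtrl. Every pair of groups overlapped. The differences were 0.16 for KO_let-7g against KO_siCtrl (95% interval -0.23 to 0.55, adjusted p = 0.496), and 0.23 for KO_siCtrl against WT_siCtrl (-0.16 to 0.62, adjusted p = 0.296). KO_siNr6a1 against KO_siCtrl gave -0.19 (-0.58 to 0.20, adjusted p = 0.450). KO_let-7g averaged 52.9 ± 10.1 FPKM against 40.0 ± 6.10 in WT_siCtrl (0.39, adjusted p = 0.0802), and that adjusted p was 0.0352 without KO_let-7g replicate 0. A fall of Myc mRNA with let-7g larger than 0.23 on the log2 scale lies outside the interval of this fit of unscaled FPKM. Under median-of-ratios scaling the difference of KO_let-7g against KO_siCtrl was 0.066, so the limit depends on the scaling.

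Mycn and Mycl1 encode N-Myc and L-Myc, best known from embryonic tissues and from neuroendocrine tumours. Neither reached 1 FPKM in any library, so both were left out of the main fit. Mycn was listed at 0, 0.00116 and 0.00313 FPKM in KO_let-7g, at 0, 0.0233 and 0 in KO_siNr6a1, at 0, 0.00137 and 0.00140 in KO_siCtrl, and at 0.168, 0.576 and 0.181 in WT_siCtrl. Mycl1 was at 0.0837, 0.0270 and 0.0949 FPKM in KO_let-7g, 0.0601, 0.0148 and 0.0108 in KO_siNr6a1, 0.0508, 0 and 0.0152 in KO_siCtrl, and 0.244, 0.209 and 0.251 in WT_siCtrl. Every WT_siCtrl library lay above every Dicer -/- library for both genes. How many of all genes have WT_siCtrl apart in this way was not counted. With no filter on low values, both were called lower in KO_siCtrl than in WT_siCtrl (Mycn -0.37, adjusted p = 0.0154; Mycl1 -0.27, adjusted p = 1.36e-04). In that fit 6938 of the 21881 genes were called in KO_siCtrl against WT_siCtrl, higher or lower. Mycn and Mycl1 were also called lower in KO_let-7g and in KO_siNr6a1 than in WT_siCtrl. Neither was called between 2 Dicer -/- groups in that fit. Myc made up 98.2% to 100% of the summed FPKM of its family in every library.

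**Figure D2:**
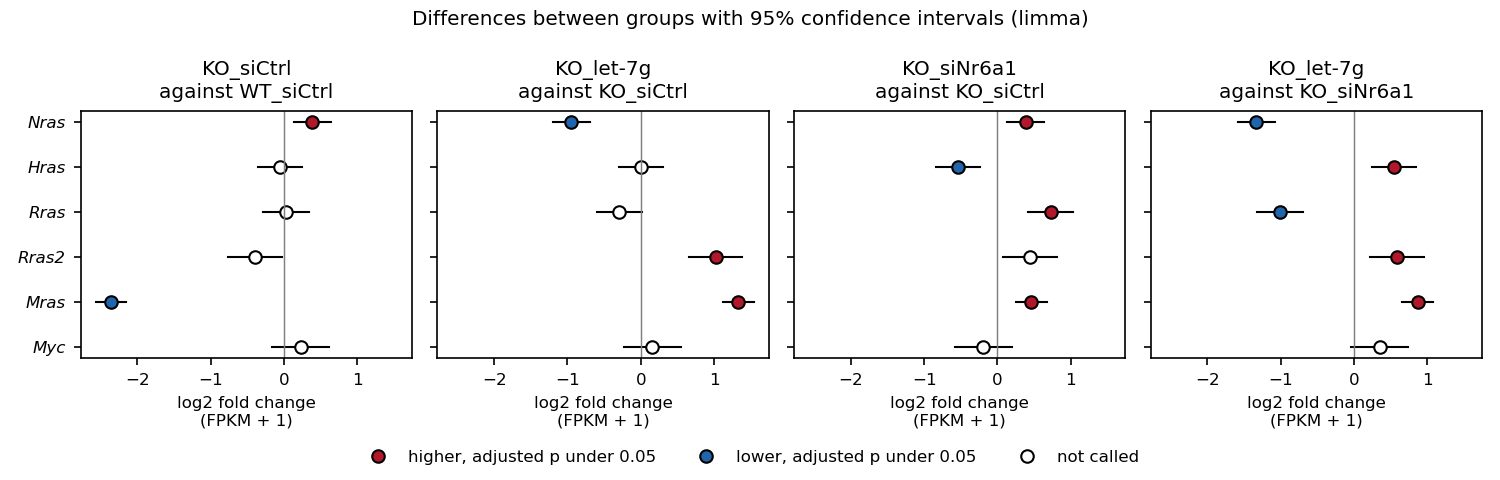
Log2 fold change of FPKM + 1 (horizontal axis) of the 6 tested genes in 4 comparisons, with points filled red where higher and blue where lower at an adjusted p under 0.05, open where not called, and bars for the 95% confidence interval from limma. Nras lies at -0.95 in KO_let-7g against KO_siCtrl, where Rras2 lies at 1.02 and Mras at 1.33.

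Counted over the 6 genes tested, 2 were called in KO_siCtrl against WT_siCtrl, where Nras rose and Mras fell; of all genes tested 54.3% were called (29.1% higher, 25.2% lower). In KO_let-7g against KO_siCtrl 3 were called, with Rras2 and Mras higher and Nras lower, and of all genes 45.6% (27.5% higher, 18.2% lower). KO_siNr6a1 against KO_siCtrl gave 4, with Nras, Rras and Mras higher and Hras lower, and of all genes 29.4% (13.2% higher, 16.3% lower). In KO_let-7g against KO_siNr6a1 5 were called, with Hras, Rras2 and Mras higher and Nras and Rras lower, and of all genes 40.9% (27.6% higher, 13.3% lower). KO_let-7g against WT_siCtrl gave 3 (Rras2 higher, Nras and Mras lower), and of all genes 58.2% (35.3% higher, 22.8% lower). KO_siNr6a1 against WT_siCtrl gave 4 (Nras and Rras higher, Hras and Mras lower), and of all genes 54.3% (27.0% higher, 27.4% lower). Groups whose 3 libraries did not overlap, as in Nras and Mras, were also common: 57.2%, 55.4%, 46.1%, 55.4%, 60.9% and 59.1% of all genes in these 6 comparisons, in the order given. The shares without overlap are for pairs of groups, and genes with a group apart from all other libraries were not counted. With shares of this size among all genes, being called is common, and the size and direction of each gene's change carry more than the count. In KO_let-7g against KO_siCtrl, 8.36% of all genes changed by more than Nras, 6.70% by more than Rras2 and 2.92% by more than Mras, in either direction. In KO_siNr6a1 against KO_siCtrl, 7.99% changed by more than Rras and 14.7% by more than Hras. Scaling moved the balance of all called genes: 60.2% of those in KO_let-7g against KO_siCtrl were higher, against 49.3% under median-of-ratios scaling. For KO_siNr6a1 against KO_siCtrl these shares were 44.8% and 56.2%, for KO_let-7g against KO_siNr6a1 67.6% and 45.2%, and for KO_let-7g against WT_siCtrl 60.7% and 48.0%. The median log2 fold change of all genes was 0.12 in each of the last 2 comparisons, and -0.01 under that scaling; no called difference of a member changed sign.

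The 5 Ras genes together gave a measure of how the family's make-up differed. Their FPKM summed to 135.6 ± 5.49 in KO_let-7g, 187 ± 10.6 in KO_siNr6a1, 145.3 ± 1.63 in KO_siCtrl and 154 ± 11.9 in WT_siCtrl. KO_siNr6a1 alone lay above the rest, at 177.3 to 198.3 in its libraries, and the other 3 groups stood between 129.5 and 163.9. Nras made up 17.1% of the sum in KO_let-7g, 32.1% in KO_siNr6a1, 31.4% in KO_siCtrl and 22.8% in WT_siCtrl. Rras2 made up 23.3% in KO_let-7g, 11.2% in KO_siNr6a1, 10.4% in KO_siCtrl and 13.3% in WT_siCtrl. Rras was the largest part in KO_siNr6a1, at 42.2%, with 28.4% in KO_let-7g, 32.5% in KO_siCtrl and 30.3% in WT_siCtrl. Mras was 5.06% of the sum in KO_let-7g, 1.77% in KO_siNr6a1, 1.47% in KO_siCtrl and 9.81% in WT_siCtrl. Hras was 26.1%, 12.8%, 24.3% and 23.8% in the same order of groups. These sums and shares are descriptions with no test.

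**Figure D3:**
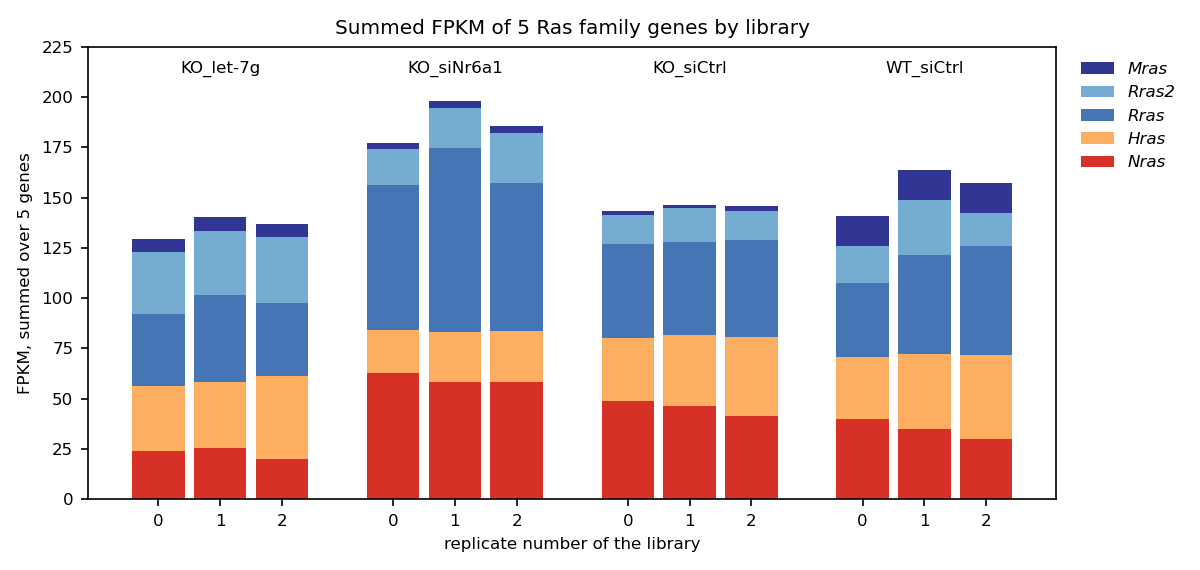
Summed FPKM of the 5 Ras family genes (vertical axis) in each of the 12 libraries, by group and replicate number, with colours for the genes. The KO_siNr6a1 bars reach 177.3 to 198.3 FPKM and the KO_let-7g bars 129.5 to 140.2 FPKM.

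The members were then set beside all tested genes with the same kind of seed match, 11216 of which (95%) had a 3′ UTR under the table's name. In KO_let-7g against KO_siCtrl, genes with an 8mer had a median log2 fold change of -0.25 (412 genes, 43.0% called lower). Those with a 7mer-m8 as the longest match had -0.15 (740 genes, 35.9% lower). Those with a 7mer-A1 had -0.12 (721 genes) and those with a 6mer 0.04 (1070 genes). The 8273 genes without these letters had 0.12, and 14.4% were called lower. Nras, at -0.95, lay lower than all but 9.19% of the 7mer-m8 genes. That class goes by the longest match whatever the number of matches, and Nras also has a 7mer-A1 and a 6mer. Of 20979 genes with a 3′ UTR, 554 held at least as many matches of 7 or 8 bases as Nras. Hras and Rras, each with 1 6mer, were at -0.00 and -0.29, where 45.5% and 23.3% of 6mer genes were lower. The 6mer of Hras lies outside its RefSeq gene. Rras2 and Mras, which lack a match, were above 96.0% and 98.6% of the genes without one, and Myc above 53.8%. In KO_siNr6a1 against KO_siCtrl the 7mer-m8 genes had a median of -0.04 and those without a match -0.07. Of the genes set against Nras in this class, 85.9% were lower than its 0.39.

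**Figure D4:**
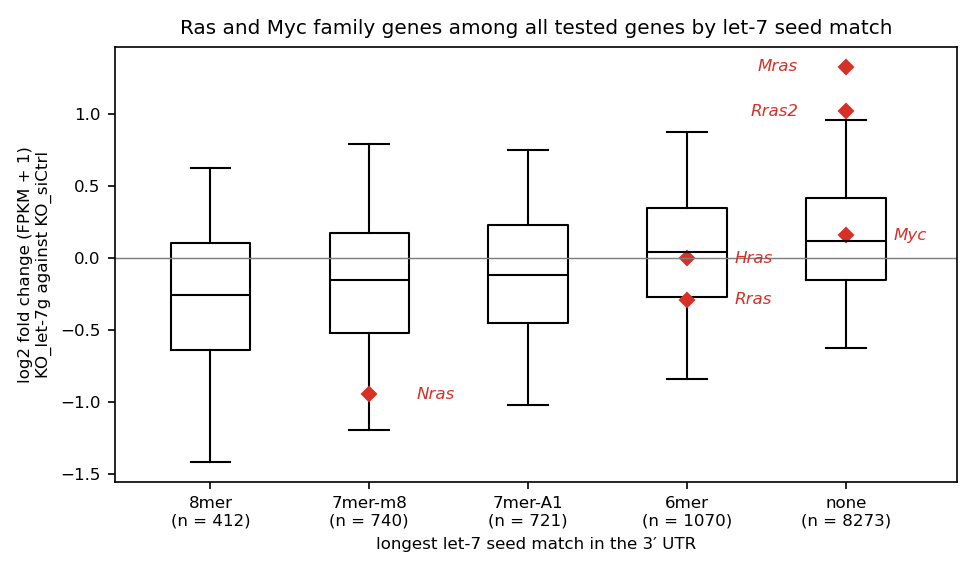
Log2 fold change of FPKM + 1 in KO_let-7g against KO_siCtrl (vertical axis) of all tested genes by their longest let-7 seed match, with boxes for the quartiles and median and whiskers for percentiles 5 and 95. Diamonds mark the members: Nras at -0.95 among 740 genes with a 7mer-m8, and Mras at 1.33 and Rras2 at 1.02 among 8273 genes without a match.

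A list of known let-7 targets was set beside the members; it was chosen with earlier results of these data known. In KO_let-7g against KO_siCtrl 14 of 16 tested genes fell and 0 rose, with a median of -1.43 beside 0.08 for all genes tested; unadjusted p-values under 0.05 gave the same counts, 14 and 0. In KO_siCtrl against WT_siCtrl 13 rose and 1 fell, with a median of 1.96 beside 0.04. Igf2bp2, an RNA-binding protein of fetal tissue, had 33.7 ± 4.64 FPKM in KO_let-7g, 135.2 ± 3.90 in KO_siCtrl and 1.92 ± 0.286 in WT_siCtrl. Arid3a, a DNA-binding protein, had 1.86 ± 0.408 in KO_let-7g against 13.9 ± 1.06 FPKM in KO_siCtrl (-2.38, adjusted p = 5.34e-07). In KO_siNr6a1 against KO_siCtrl 4 rose and 4 fell, and Nr6a1, the target of that siRNA, is one of the genes that fell. In these 16 genes the longest match was an 8mer in 8, a 7mer-m8 in 5 and a 7mer-A1 in 3. The change of Nras, -0.95, was smaller than the median of that list.

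**Figure D5:**
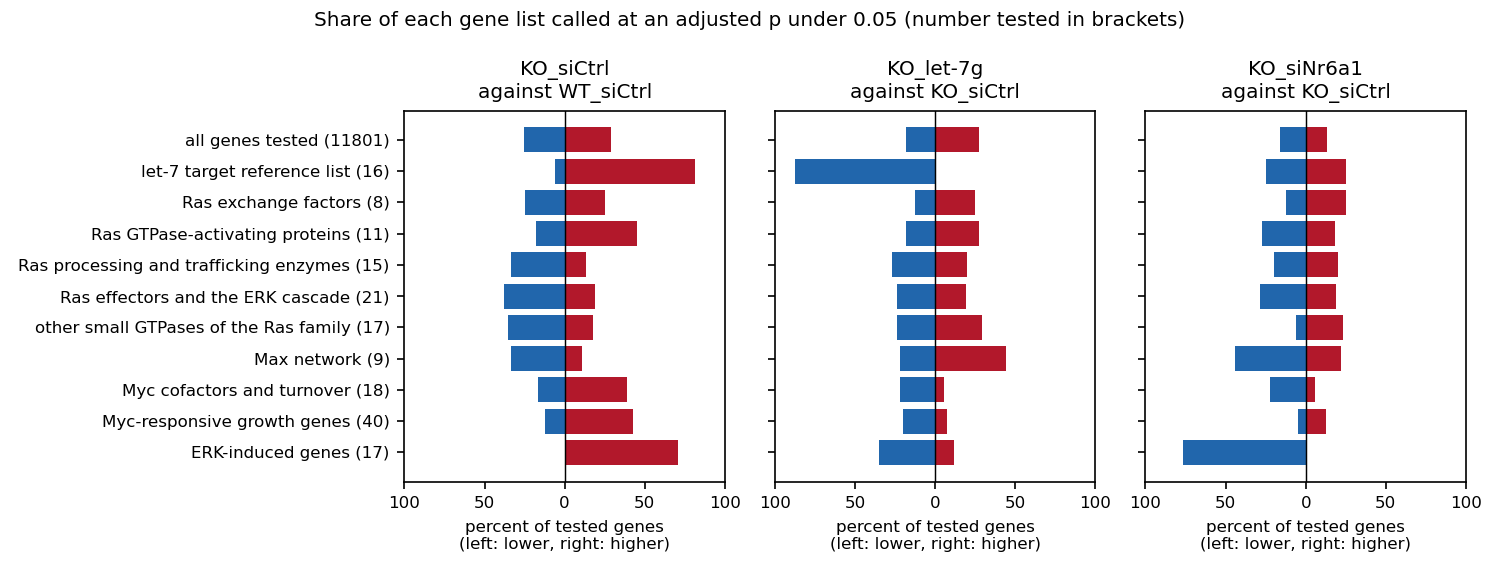
Percent of the tested genes of each list (number in brackets) that were lower (blue, left of 0) or higher (red, right of 0) at an adjusted p under 0.05 in 3 comparisons. The let-7 list is called lower for 14 of 16 genes in KO_let-7g against KO_siCtrl, and the ERK-induced list higher for 12 of 17 in KO_siCtrl against WT_siCtrl.

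Genes that load Ras with GTP or switch it off were counted beside all genes tested, of which 29.1% rose and 25.2% fell in KO_siCtrl against WT_siCtrl. In KO_let-7g against KO_siCtrl 27.5% of all genes rose and 18.2% fell. In KO_siNr6a1 against KO_siCtrl 13.2% rose and 16.3% fell. The counts of the lists that follow are to be read beside these shares. Of 8 tested exchange factors and adaptors, 2 rose and 2 fell in KO_siCtrl against WT_siCtrl, 2 rose and 1 fell in KO_let-7g against KO_siCtrl, and 2 rose and 1 fell in KO_siNr6a1 against KO_siCtrl. The second pair of counts became 1 and 2 under median-of-ratios scaling, and 3 and 2 with replicate number as a block. Shc1, an adaptor between receptors and Ras, fell in KO_siCtrl (29.7 ± 1.90 against 57.8 ± 7.51 FPKM in WT_siCtrl; -0.93, adjusted p = 8.93e-06). It rose in KO_let-7g (39.1 ± 1.42 FPKM; 0.38) and in KO_siNr6a1 (48.8 ± 0.235 FPKM; 0.70). Ptpn11, the phosphatase SHP2, fell in KO_siCtrl (41.9 ± 2.91 against 68.6 ± 4.39 FPKM; -0.70), and the exchange factor Sos2 rose (8.55 ± 1.24 against 5.01 ± 0.455 FPKM; 0.66). Of 11 GTPase-activating proteins and relatives, 5 rose and 2 fell in KO_siCtrl against WT_siCtrl, 3 rose and 2 fell in KO_let-7g, and 2 rose and 3 fell in KO_siNr6a1 (3 and 5 with replicate number as a block). Rasa1 rose in KO_siCtrl against WT_siCtrl (23.1 ± 2.20 against 13.9 ± 2.17 FPKM; 0.71, adjusted p = 4.48e-04). Spred3, of a family that restrains Ras signalling, rose in KO_siCtrl (5.56 ± 1.013 against 2.33 ± 0.501 FPKM; 0.98) and fell in KO_let-7g (1.63 ± 0.218 FPKM; -1.31) and in KO_siNr6a1 (2.41 ± 0.107 FPKM; -0.93).

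Enzymes that attach lipids to Ras or carry it to membranes were mixed. Of 15 tested, 2 rose and 5 fell in KO_siCtrl against WT_siCtrl, 3 rose and 4 fell in KO_let-7g, and 3 rose and 3 fell in KO_siNr6a1. With replicate number as a block the first became 4 and 7. Zdhhc9 and Golga7 encode the subunits of the enzyme that palmitoylates H-Ras and N-Ras. In KO_siNr6a1 both rose over KO_siCtrl, Golga7 with 65.8 ± 2.96 against 33.5 ± 1.19 FPKM (0.95, adjusted p = 2.01e-04) and Zdhhc9 with 15.4 ± 0.362 against 8.99 ± 0.647 FPKM (0.72, adjusted p = 4.04e-04). Rce1, the protease that trims prenylated Ras, rose in KO_let-7g (52.5 ± 4.43 against 33.5 ± 1.58 FPKM; 0.63), and so did Lztr1, an adaptor for Ras ubiquitination (29.7 ± 0.676 against 19.1 ± 1.37 FPKM; 0.61). Fntb, a subunit of farnesyltransferase, fell there (7.06 ± 0.952 against 11.7 ± 1.76 FPKM; -0.65).

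Of 21 tested effectors and ERK cascade genes, 4 rose and 8 fell in KO_siCtrl against WT_siCtrl, 4 rose and 5 fell in KO_let-7g against KO_siCtrl, and 4 rose and 6 fell in KO_siNr6a1 against KO_siCtrl. Araf, a kinase of the Raf family, fell in KO_let-7g against KO_siCtrl (23.7 ± 2.82 against 45.0 ± 6.08 FPKM; -0.89). Plce1, a phospholipase C that binds Ras, had 0.0297 ± 0.0265 FPKM in KO_siCtrl and 5.24 ± 0.343 in WT_siCtrl, with 0.0303 in KO_let-7g and 0.0641 in KO_siNr6a1. Rassf1, a Ras-association protein, fell in KO_siCtrl against WT_siCtrl (29.2 ± 3.75 against 61.6 ± 0.781 FPKM; -1.06) and in KO_siNr6a1 against KO_siCtrl (17.0 ± 0.458 FPKM; -0.74). Among 17 other small GTPases of the family, 3 rose and 6 fell in KO_siCtrl, 5 rose and 4 fell in KO_let-7g, and 4 rose and 1 fell in KO_siNr6a1. The first pair of counts became 5 and 7 with replicate number as a block. Rap1b and Rap2c rose in KO_siNr6a1, with 148.2 ± 5.80 against 83.1 ± 11.3 FPKM (0.83) and 32.6 ± 1.87 against 15.4 ± 2.74 FPKM (1.05). Rhebl1, a relative of the mTORC1 activator Rheb, rose in KO_let-7g (31.9 ± 5.59 against 14.6 ± 0.305 FPKM; 1.07).

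The ERK-induced list holds genes that mark activity of the cascade. In KO_siCtrl against WT_siCtrl 12 of 17 rose and 0 fell by limma, the same as at an unadjusted p under 0.05, with a median of 1.19. In KO_siNr6a1 against KO_siCtrl 13 fell and 0 rose (14 and 0 at an unadjusted p under 0.05), with a median of -0.72 beside -0.06 for all genes. In KO_let-7g against KO_siCtrl 2 rose and 6 fell, which became 5 and 8 with replicate number as a block. Dusp6, a phosphatase that switches ERK off, had 13.1 ± 1.72 FPKM in KO_let-7g, 13.97 ± 1.204 in KO_siNr6a1, 25.3 ± 3.19 in KO_siCtrl and 5.36 ± 0.850 in WT_siCtrl. Ereg, the growth factor epiregulin, had 11.97 ± 1.16 FPKM in KO_siCtrl against 0.862 ± 0.150 in WT_siCtrl (2.80, adjusted p = 1.91e-08). These are mRNA levels, and ERK activity itself was not measured.

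Max network genes encode Myc's partner and its competitors. Of 9 tested, 1 rose and 3 fell in KO_siCtrl against WT_siCtrl, 4 rose and 2 fell in KO_let-7g, and 2 rose and 4 fell in KO_siNr6a1. The 4 called in the first comparison are set beside 54.3% of all genes, and no direction was read for the network as a whole. Mxd4, an antagonist that competes with Myc for Max, fell in KO_siCtrl (8.69 ± 1.64 against 62.6 ± 14.2 FPKM in WT_siCtrl; -2.70, adjusted p = 3.69e-07). It rose over KO_siCtrl in KO_let-7g (24.2 ± 4.11 FPKM; 1.38) and in KO_siNr6a1 (19.8 ± 1.69 FPKM; 1.11). Mxi1, another antagonist, had 14.6 ± 0.410 FPKM in KO_let-7g, 7.71 ± 0.103 in KO_siNr6a1, 9.62 ± 0.647 in KO_siCtrl and 15.7 ± 0.586 in WT_siCtrl. Mxd1 rose in KO_siCtrl against WT_siCtrl and fell in both KO_let-7g and KO_siNr6a1 against KO_siCtrl, with 2.93 ± 0.458 FPKM in KO_let-7g, 3.38 ± 0.293 in KO_siNr6a1, 6.64 ± 0.411 in KO_siCtrl and 4.12 ± 0.826 in WT_siCtrl. Antagonists of one network thus differed in direction.

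Of 18 cofactors and turnover genes, 7 rose and 3 fell in KO_siCtrl against WT_siCtrl, 1 rose and 4 fell in KO_let-7g, and 1 rose and 4 fell in KO_siNr6a1. With replicate number as a block these became 11 and 5, 3 and 7, and 1 and 7. The last was 1 and 2 under median-of-ratios and under quantile scaling. Skp2 and Fbxw7, subunits of ubiquitin ligases that act on Myc, rose in KO_siCtrl (49.4 ± 0.294 against 26.9 ± 2.39 FPKM, 0.86; 14.1 ± 0.924 against 7.86 ± 0.658 FPKM, 0.77). Aurka, a kinase that stabilizes N-Myc, rose in KO_siCtrl against WT_siCtrl (80.1 ± 7.98 against 51.8 ± 2.39 FPKM, 0.61). Over KO_siCtrl it rose in KO_let-7g (120.6 ± 9.86 FPKM, 0.59) and in KO_siNr6a1 (101.3 ± 4.54 FPKM, 0.34). Of 40 growth genes that respond to Myc, 17 rose and 5 fell in KO_siCtrl against WT_siCtrl, with a median of 0.25. In KO_let-7g 3 rose and 8 fell, beside 27.5% and 18.2% of all genes tested. Under median-of-ratios scaling 3 rose and 14 fell. That scaling also moved all genes, from 3241 higher and 2142 lower to 2639 higher and 2712 lower. In KO_siNr6a1 5 rose and 2 fell. With the block the last 2 comparisons gave 4 and 15, and 5 and 6. Cdk4, a cell-cycle kinase, was among the few of its list that fell in KO_siCtrl against WT_siCtrl, and rose in both other comparisons: it had 293.8 ± 33.8 FPKM in KO_let-7g, 257.1 ± 47.9 in KO_siNr6a1, 74.7 ± 7.77 in KO_siCtrl and 196.2 ± 44.1 in WT_siCtrl. Ldha, an enzyme of glycolysis, had 733.9 ± 21.3 FPKM in KO_let-7g, 1019 ± 49.9 in KO_siCtrl and 706.9 ± 49.2 in WT_siCtrl.

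Genes whose pattern over the 12 libraries was most like that of a member were named for those with group means that spanned at least 1 on the log2 scale. Likeness was the root-mean-square difference of log2(FPKM + 1) after each gene was centred. For Nras these were Psme4 (0.127) and Magt1 (0.137), for Rras Ctns (0.135) and Nt5dc2 (0.135), and for Rras2 Zfp932 (0.140) and Muted (0.145). For Mras they were Rhoj (0.195) and Fgfr1 (0.1995). Fgfr1, a receptor for fibroblast growth factors, had 10.4 ± 1.09 FPKM in KO_let-7g, 5.72 ± 0.334 in KO_siNr6a1, 5.18 ± 0.392 in KO_siCtrl and 24.8 ± 3.34 in WT_siCtrl. That is the order of groups seen for Mras. Psme4, a proteasome activator, had 21.3 ± 2.77 FPKM in KO_let-7g, 48.7 ± 5.93 in KO_siNr6a1, 40.0 ± 3.84 in KO_siCtrl and 35 ± 6.03 in WT_siCtrl, the order seen for Nras. The genes share the same 12 libraries, and the likeness is a description with no test. They were picked for likeness over those libraries, so a shared order of groups largely follows from the choice.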

How the data were processed

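Polyadenylated RNA of 12 libraries was measured. The authors deposited 1 table of FPKM values for 21881 genes, made with TopHat 1.2.0, Cufflinks 1.0.3 and mouse build mm9, per the submitters' processing notes; settings are not given in the sources used here. FPKM divides a gene's fragments by transcript length and by all mapped fragments of the library. Through the latter, a few abundant genes can shift all other values. Depth is known only as a ratio between libraries. Groups and replicate numbers come from sample titles. Tests covered the 11801 genes, 6 of the 8 members among them, that reached 1 FPKM in 3 or more libraries, and ran on log2(FPKM + 1) with limma 3.58.1 in R 4.3.3 (trend, 1 coefficient per group, 8 residual degrees of freedom, two-sided, Benjamini-Hochberg adjustment over all genes). The procedure was tested on simulated data. Alternatives were a pseudocount of 0.1, other filters, median-of-ratios and quantile scaling, fits of 2 groups, replicate number as a block, and leaving out each library.

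No label says what a replicate number marks. The pairing was read from the data: in 5 of 6 comparisons every same-numbered pair deviated together with a correlation over 0.1, and in KO_siNr6a1 against WT_siCtrl the lowest was 0.0915. Members and lists were chosen with earlier results of these data known. Named list genes are among the 3 with the smallest adjusted p in a list and comparison. One gene that this rule names is not reported here. No library pair held identical values.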

Additional observations from a re-analysis of the deposited data

How the results depend on the processing

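Over 19 alternatives to each of 36 member differences, 22 kept direction and side of the threshold throughout; of the 21 called, 18 kept both, and 18 values changed sign, none of them of a called difference. In KO_siCtrl against WT_siCtrl 2 members were called, 4 with no filter, which adds Mycn and Mycl1, and 1 to 2 when a library was left out. In KO_let-7g against WT_siCtrl 3 were called, and 5 with no filter. Genes called in KO_siNr6a1 against KO_siCtrl numbered 3474, 5248 with replicate number as a block and 2545 to 3813 when a library was left out; besides the 2 Rras2 values given above, the block changed no member's call. All 12 libraries correlated best with those of their own number, a hint from the data and not the design.

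Signs turned in differences near 0. Rras in KO_siCtrl against WT_siCtrl was 0.03, -0.012 under median-of-ratios scaling, -0.0081 under quantile scaling, and -0.13 to 0.15 when a library was left out. Myc in KO_siNr6a1 against WT_siCtrl was 0.04, -0.0033 under quantile scaling and -0.090 to 0.15 when a library was left out. Leaving out a library gave -0.16 to 0.043 for Hras in KO_siCtrl against WT_siCtrl, -0.11 to 0.081 in KO_let-7g against KO_siCtrl and -0.16 to 0.042 in KO_let-7g against WT_siCtrl, and -0.11 to 0.25 for Rras2 in KO_siNr6a1 against WT_siCtrl. The cause was not tested. Of the Nras rises, KO_siCtrl over WT_siCtrl had an adjusted p of 0.0502 under quantile scaling, and KO_siNr6a1 over KO_siCtrl 0.0553 with no filter. Read counts are not known, so the counting error of the values near 0 of Mycn and Mycl1 cannot be given.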
